A study of Mus musculus with 24 samples.

Results

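Natural killer (NK) cells are lymphocytes that kill infected or transformed cells without prior sensitisation, and 10 genes of their killing machinery and receptors were followed on the surface of murine blood cells and in murine blood. The list holds 2 chemokines (Ccl5 and Xcl1), 4 granule proteins (Gzma, Gzmb, Prf1 and Nkg7) and 4 receptors (Klrk1, Klrd1, Klrb1c and Ncr1). They were chosen by symbol, as genes known from NK cells and cytotoxic T cells, and are 10 of the 33967 gene names listed in all 5 surface tables, and 10 of the 55335 genes in the blood tables.

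NK cells carry lytic granules that are released towards a bound target. Perforin opens pores in the target membrane, granzymes enter through them and cleave proteins inside the target, and chemokines secreted at the same time draw in other leukocytes. Whether a granule is released depends on the balance of activating and inhibitory receptors, many of which are C-type lectin-like proteins encoded together in the NK gene complex. Cytotoxic CD8 T cells use much of the same machinery, so few of these genes belong to NK cells alone.

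Surface RNA was measured with AMOUR in 15 libraries, 3 per cell type. In this assay intact fixed cells are bound to lectin beads, and RNA on the outer membrane is amplified in place by T7 RNA polymerase. The paper states that no current method fully excludes contamination by RNA from inside the cell. In its cell line controls, representative protein-coding RNAs were enriched in cell lysate over AMOUR. All cells came from C57BL/6 mice of genotype WT, with no treatment other than the amplification itself. Spleen gave the NK, T and B cells, while bone marrow gave the monocytes and the hematopoietic stem and progenitor cells (HSPCs), each with an isolation kit. The kit used for T cells isolates CD8 T cells, and HSPCs were obtained by lineage depletion. From peripheral blood mononuclear cells (PBMCs) of genotype wild type, total RNA was sequenced in 9 further libraries, 3 in each of the treatment groups ct, WT and Y. The labels give these letters and no explanation, so the letters are kept. Mouse age is not given in the sources used here.

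Surface levels are in TPM, the length-scaled abundance of a transcript with each library brought to a sum of 1000000, added over the transcripts that carry a gene's symbol. A TPM is a share of 1 library, keeps no depth, and was compared as log2(TPM + 1). Protein-coding transcripts held 0.645% to 1.52% of the TPM of T cell libraries, 1.49% to 2.96% in NK cells, 2.00% to 2.88% in B cells, 1.14% to 1.93% in HSPCs and 16.9% to 18.1% in monocytes. Levels are therefore also given on a protein-coding scale, on which only protein-coding transcripts are taken and their TPM in each library are brought to a sum of 1000000. Monocytes were sequenced on another platform than the other 4 cell types, and platform and cell type cannot be told apart for them. PBMC libraries held 4686426 to 9055797 expected counts, of which 50.5% to 57.0% belonged to 1 ribosomal RNA gene.

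The labelled cell types were checked against defining markers. In T cell libraries Cd8b1, a chain of the CD8 coreceptor, was at 8.68, 24.9 and 17.1 TPM, and Cd4 was at 0.0168, 0.0275 and 0 TPM. NK cell libraries had Cd3e, a chain of the T cell receptor complex, at 0, 0.0813 and 0.0639 TPM. They were not free of other markers. The sum of 10 HSPC markers was 7.68, 10.9 and 15.3 TPM in NK libraries, against 11.3 to 17.5 TPM in HSPCs and 0.845 to 1.35 TPM in T cells, while monocyte libraries had the highest sum, 33.6 to 35.0 TPM. For 10 neutrophil markers it was 24.5 to 34.2 TPM in NK libraries, with Mmp8 listed at 0, and 0.211 to 0.511 TPM in T cells, and in monocyte libraries it was 1489 to 1549 TPM. The 12 B cell markers summed to 105, 236 and 268 TPM in NK libraries against 590 to 855 TPM in B cell libraries. The summed level of 10 erythroid markers was 113, 74.2 and 125 TPM in NK libraries, above the 4.58 to 10.9 TPM of T cells, and Car1 made up 38.0 to 76.0 TPM of it. Sums of the 14 T cell markers were 8.58, 23.0 and 21.4 TPM in NK cells and 55.2 to 172 TPM in T cells. The part of these other markers in the results was not tested.

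All 10 genes had their highest mean surface level in NK cells. The paper takes only transcripts above a set TPM threshold as positive hits. Among the 10 genes, only transcripts of Ccl5 and Gzma passed it in any library, and the threshold was not applied here. The TPM of all 10 genes summed to 221, 552 and 520 in the NK libraries and to 13.6, 38.2 and 30.0 in the T cell libraries. Monocytes had sums of 26.4, 37.6 and 32.6 TPM, HSPCs of 2.87, 5.02 and 4.07 TPM, and B cells of 1.23, 0.639 and 0.585 TPM. The NK libraries lay above all others, T cells and monocytes overlapped, and B cells were lowest. Because the genes were listed with earlier results known, these sums are a description and carry no test. On the protein-coding scale the order below NK cells was another one, with 14553 to 21721 in NK cells, 2044 to 2404 in T cells, 236 to 259 in HSPCs, 94.6 to 148 in monocytes and 25.8 to 42.3 in B cells.

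**Figure D1:**
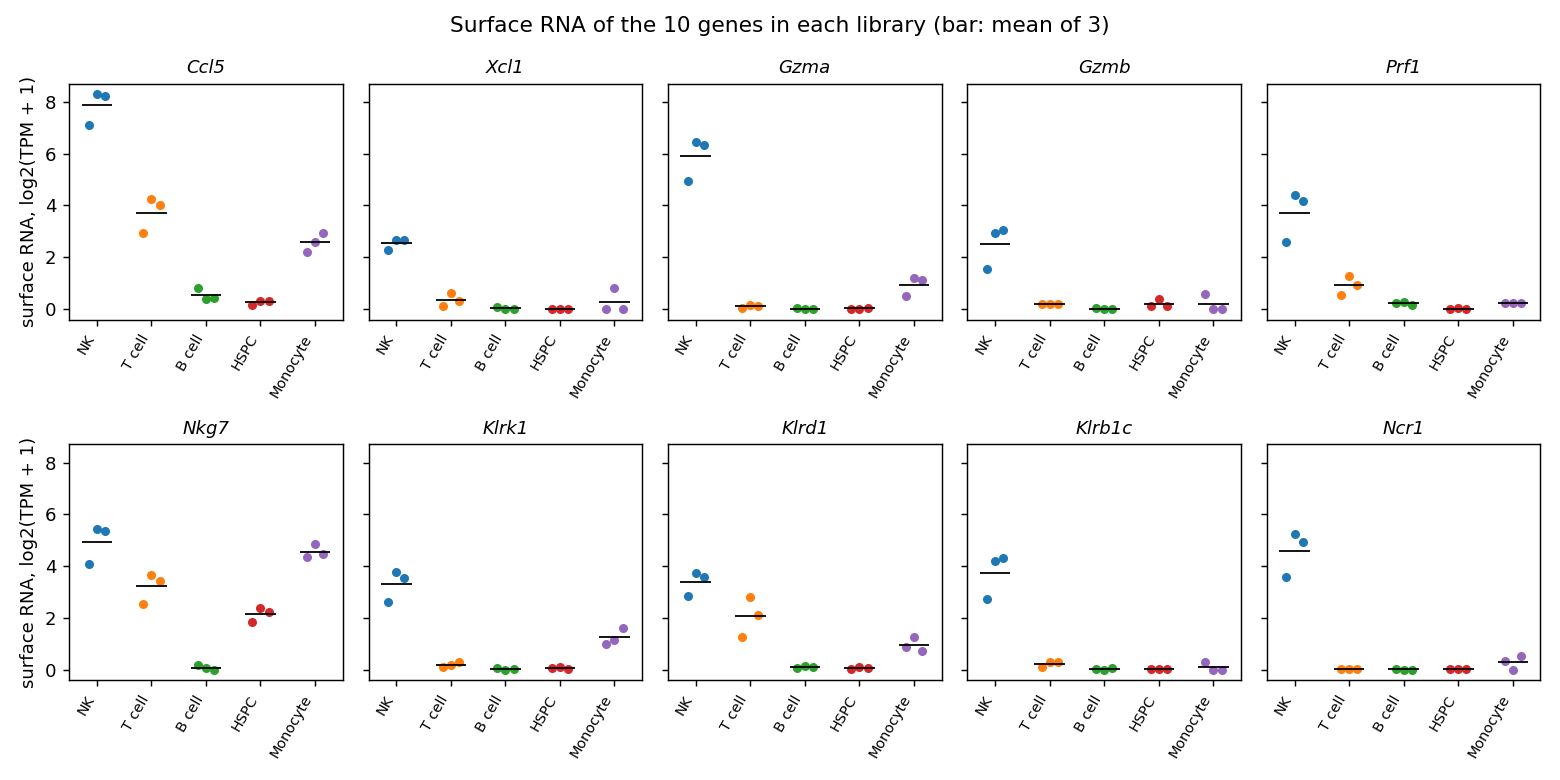
Surface RNA of each gene in the 15 libraries, as log2(TPM + 1), with 1 point per library and a bar at the mean of 3. All 3 NK points lie above the other 12 for every gene but Nkg7, whose monocyte points reach 19.3 to 27.8 TPM on the linear scale.

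In NK libraries Ccl5 was first with a mean of 250 ± 98.8 TPM (SD, n = 3), followed by Gzma at 65.0 ± 30.7, Nkg7 at 32.5 ± 14.5 and Ncr1 at 25.6 ± 13.3. Prf1 at 14.1 ± 8.07 and Klrb1c at 13.9 ± 7.16 came next, then Klrd1 at 9.76 ± 3.09 and Klrk1 at 9.53 ± 3.90, and last Gzmb at 5.25 ± 2.92 and Xcl1 at 4.82 ± 0.846. Among neighbours in this order, only the ranges of Ccl5 and Gzma did not overlap. Within single libraries the order from Ccl5 through Gzma, Nkg7 and Ncr1 to Prf1 was the same in all 3, whereas Prf1 was above Klrb1c in 1 of 3.

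One of the NK libraries was lower than the others. In replicate 1 the summed TPM was 41.2% of the mean of replicates 2 and 3, and single genes ranged from 26.7% (Prf1) to 72.5% (Xcl1). Protein-coding TPM as a whole was 54.6% of the mean of the other two in that library. On the protein-coding scale the sum was at 74.9%, and Xcl1 (132%) and Klrd1 (113%) were above the mean of the other two there. Klrd1 was highest in replicate 2. All 10 genes had their lowest NK level in TPM in replicate 1.

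The share of each gene in the sum differed between cell types. Ccl5 held 56.8% to 61.8% of the summed TPM in NK libraries and 46.8% to 50.3% in T cell libraries. Gzma held 13.4% to 15.5% in NK cells and 0.0825% to 0.311% in T cells. Nkg7 went the other way, with 7.17% to 7.63% in NK cells and 30.8% to 35.5% in T cells, and so did Klrd1, with 2.08% to 2.84% and 10.3% to 15.7%. In HSPCs and monocytes the sum was mostly Nkg7, at 85.0% to 90.8% and 65.7% to 73.8%.

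**Figure D2:**
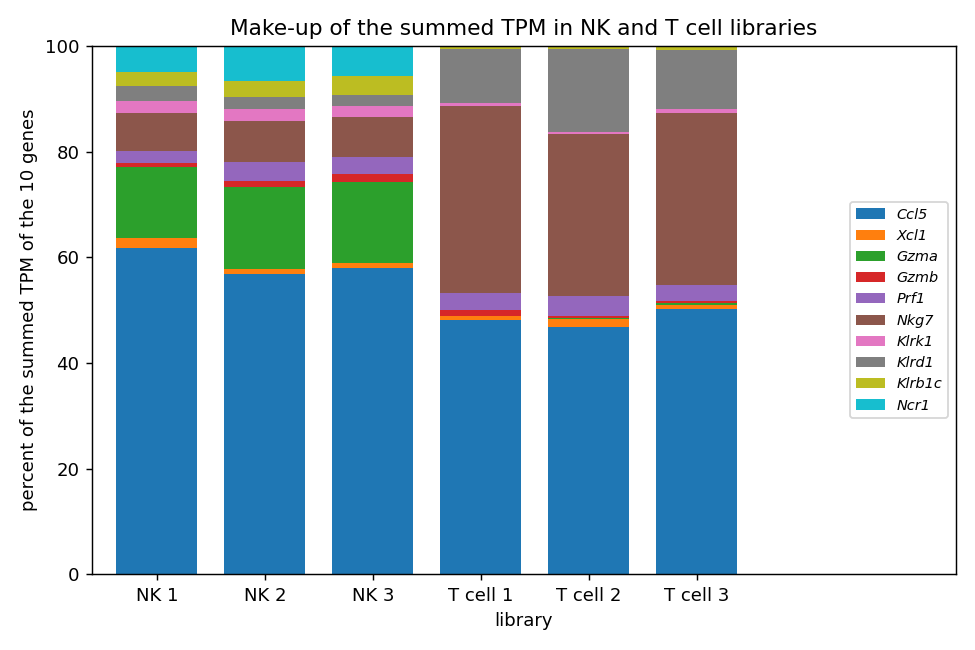
Share of each gene in the summed TPM of the 10 genes, in percent, for the 3 NK and 3 T cell libraries. Ccl5 is the largest block in all 6 bars, Gzma and Ncr1 are visible blocks only in NK bars, and Nkg7 and Klrd1 are wider in T cell bars.

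The 10 genes were compared between cell types with limma in 1 fit of 15 libraries, over 12930 genes above 1 TPM in at least 3 libraries. Calls needed a Benjamini-Hochberg adjusted p below 0.05. Without the 3 NK libraries 7 of the 10 would not have entered this set, all but Ccl5, Nkg7 and Klrd1. Xcl1, Gzmb, Klrb1c and Ncr1 were above 1 TPM in no other library, Gzma and Klrk1 in 2 monocyte libraries and Prf1 in 1 T cell library. The NK comparisons below, with their counts, standard errors and adjusted p-values on the TPM scale, are taken from the same fit with no filter. There all 10 were called higher in NK cells than in the mean of the other 4 types, where 3.67% of 33967 genes were called higher and 13.3% lower. Their median log2 fold change was 3.16, and that of all genes was -0.04. With the filter, 5.64% of genes were called higher and 39.8% lower, and no count of the 10 is read against these shares.

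Ccl5 encodes a chemokine that draws T cells, monocytes and NK cells, and lies at chr11:83525778-83530518 on the minus strand (GRCm38, GENCODE M21 annotation). Its surface level was 137, 314 and 301 TPM in NK cells, 6.58, 17.9 and 15.1 in T cells, 3.62, 5.05 and 6.66 in monocytes, 0.753, 0.317 and 0.327 in B cells and 0.115, 0.249 and 0.243 in HSPCs. NK libraries were far above all others, and T cells and monocytes overlapped at 6.58 to 6.66 TPM. The log2 fold change of NK cells against the other types was 6.10 ± 0.29 (standard error, adjusted p = 3.5e-07 with limma). Of the 2 listed Ccl5 transcripts, the retained-intron form had 2.32, 6.91 and 8.53 TPM in NK cells, 0.0374 to 0.0735 TPM in T cells, and was listed at 0 in B cells and monocytes.

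Xcl1, or lymphotactin, attracts the dendritic cells that cross-present antigen, and lies at chr1:164931644-164935527 on the minus strand. It was at 3.85, 5.26 and 5.36 TPM in NK cells and at 0.0845, 0.548 and 0.222 TPM in T cells. It was listed at 0 in all 3 HSPC libraries and in 2 of 3 libraries each of B cells and monocytes, whose remaining values were 0.0569 and 0.735 TPM. NK cells were higher by 2.37 ± 0.16 on the log2 scale (standard error, adjusted p = 3.5e-06 with limma). Xcl1 overlaps Gm20743 on the opposite strand, and 85.8% of its 31-base words occur in no other gene, so its level may hold reads of that gene.

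Gzma encodes granzyme A, a serine protease that cuts after basic residues, at chr13:113093825-113100981 on the minus strand. It reached 29.6, 85.6 and 79.6 TPM in NK cells, against 0.422, 1.26 and 1.16 TPM in monocytes and 0.0113, 0.119 and 0.0737 TPM in T cells. HSPC and B cell libraries were at 0 to 0.0213 TPM. Of the 10 genes Gzma had the second largest log2 fold change against the other 4 types, 5.64 ± 0.25 (standard error, adjusted p = 2.1e-07 with limma). Granzyme B, encoded by Gzmb at chr14:56258838-56262260 on the minus strand, cuts after aspartate and activates caspases in the target. Its level was 1.90, 6.60 and 7.25 TPM in NK cells, 0.143, 0.145 and 0.136 TPM in T cells, and at most 0.505 TPM in the other libraries. The log2 fold change was 2.36 ± 0.25 (standard error, adjusted p = 8.9e-05 with limma), and 98.6% of the 31-base words of Gzmb are found in no other gene, with 19 words shared with Gzmc. TPM are per length, and Gzma was above Gzmb in all 3 NK libraries.

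Prf1 encodes perforin, at chr10:61297833-61304680 on the plus strand. It was at 4.99, 20.3 and 17.2 TPM in NK cells and 0.447, 1.40 and 0.905 TPM in T cells. B cells (0.115 to 0.193 TPM) and monocytes (0.168 to 0.182 TPM) were lower and overlapped, and HSPCs were lowest at 0.00315 to 0.0123 TPM. Against the other types NK cells were higher by 3.38 ± 0.29 on the log2 scale (standard error, adjusted p = 1.8e-05 with limma). Both listed transcripts are protein-coding and were at similar levels in NK cells, with 2.60, 8.90 and 8.02 TPM for Prf1-201 and 2.39, 11.4 and 9.13 TPM for Prf1-202.

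Nkg7, a granule membrane protein needed for efficient release of granules, lies at chr7:43437073-43438249 on the plus strand. It was the only one of the 10 whose NK libraries (15.8, 42.1 and 39.6 TPM) did not all lie above the other 12. Monocytes had 19.3, 27.8 and 21.4 TPM, T cells 4.84, 11.8 and 9.76 TPM, HSPCs 2.60, 4.27 and 3.62 TPM, and B cells 0.139, 0.0357 and 0. NK cells were still called higher than the mean of the other types, by 2.45 ± 0.29 on the log2 scale (standard error, adjusted p = 0.00016 with limma).

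The monocyte level of Nkg7 was split over its transcripts in another way. The retained-intron transcript Nkg7-202 was at 9.47, 11.1 and 7.80 TPM in monocytes and listed at 0 in all 3 NK libraries. In T cells it was at 0.0792 TPM in 1 library and listed at 0 in the others. The main protein-coding transcript Nkg7-201 was at 11.7, 38.7 and 36.0 TPM in NK cells and 5.64, 16.7 and 5.82 TPM in monocytes. Nkg7-202 made up 41.4% of the mean Nkg7 level in monocytes and 2.51% in HSPCs. These are values of transcripts that share sequence, so the split between them rests on the estimate of the authors' tool. On the protein-coding scale Nkg7 was at 1063 to 1691 in NK cells and 55.6 to 98.7 in monocytes, and all 10 genes had their 3 NK libraries above the other 12, as did 2.16% of the 17898 genes above 0 on that scale. On the TPM scale this held for 9 of 10, and for 0.995% of the 33967 genes above 0 in at least 1 library.

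**Figure D3:**
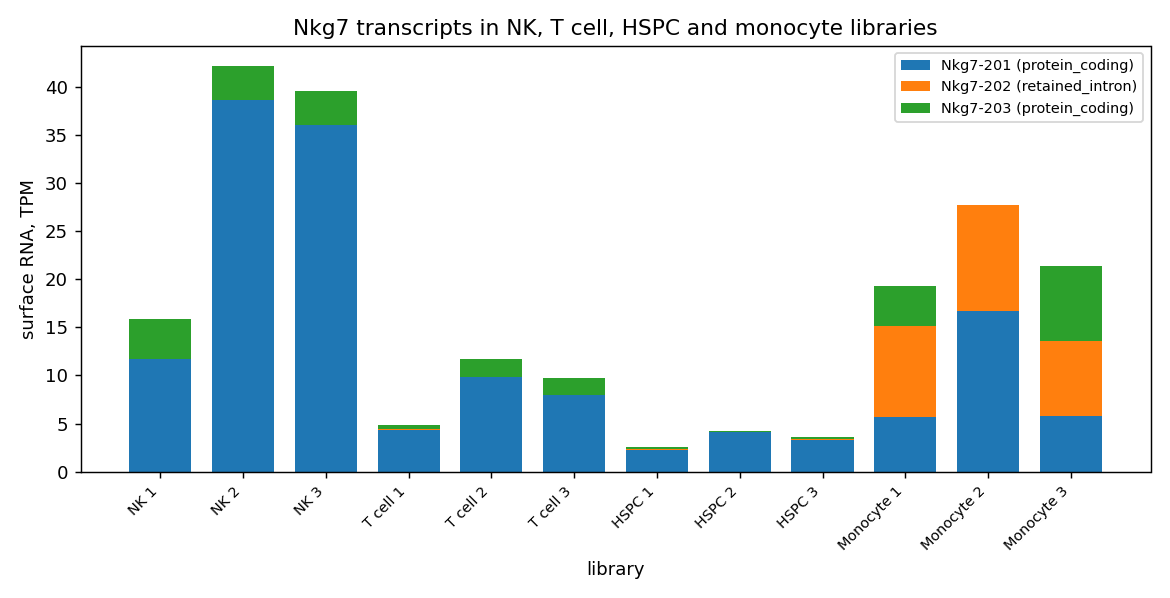
TPM of the 3 listed Nkg7 transcripts, stacked, in the NK, T cell, HSPC and monocyte libraries. The retained-intron transcript Nkg7-202 is a large block only in the 3 monocyte bars (7.80 to 11.1 TPM).

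Klrk1 encodes NKG2D, an activating receptor for stress-induced ligands, at chr6:129610323-129623864 on the minus strand. It was at 5.18, 12.7 and 10.7 TPM in NK cells and 0.998, 1.22 and 2.04 TPM in monocytes, while T cells (0.0604 to 0.209 TPM), B cells and HSPCs (0 to 0.0834 TPM) were lower. The log2 fold change against the other types was 2.94 ± 0.19 (standard error, adjusted p = 2.8e-06 with limma). Of its 6 transcripts Klrk1-201 led in NK cells with 58.8% of the mean level and was listed at 0 in all 3 monocyte libraries, where Klrk1-205 held 78.1%.

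Klrd1 encodes CD94, which pairs with receptors of the NKG2 family, at chr6:129591782-129598775 on the plus strand. Its 6.28, 12.2 and 10.8 TPM in NK cells lay close to the 1.41, 5.98 and 3.37 TPM of T cells, and the lowest NK library was only just above the highest T cell library. Monocytes had 0.827, 1.43 and 0.658 TPM, and B cells and HSPCs at most 0.0931 TPM. The log2 fold change of NK cells against the other types was 2.59 ± 0.26 (standard error, adjusted p = 5.5e-05 with limma).

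Klrb1c encodes NK1.1, the antigen by which NK cells of C57BL/6 mice are commonly recognised, at chr6:128778485-128789215 on the minus strand. It was at 5.68, 17.2 and 18.8 TPM in NK cells and at or below 0.217 TPM in every other library. NK cells were higher by 3.66 ± 0.25 on the log2 scale (standard error, adjusted p = 3.3e-06 with limma). An annotated gene on the same strand, Gm44511, overlaps it. Of the 31-base words of Klrb1c 78.8% are found in no other gene, so its level may hold reads of Gm44511.

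Ncr1 encodes NKp46, an activating receptor largely restricted to NK cells and other innate lymphoid cells, at chr7:4337724-4345164 on the plus strand. It was at 11.0, 36.7 and 29.2 TPM in NK cells and at 0.00636, 0.00949 and 0.00832 TPM in T cells. The highest value outside NK cells was 0.455 TPM, in a monocyte library. Ncr1 had the largest NK level of the 4 receptors and a log2 fold change of 4.50 ± 0.25 against the other types (standard error, adjusted p = 1.0e-06 with limma). Its 2 protein-coding transcripts were both found in NK cells, Ncr1-201 at 10.1, 30.4 and 23.4 TPM and Ncr1-202 at 0.831, 6.35 and 5.84 TPM, and Ncr1-202 was listed at 0 in all T cell and monocyte libraries.

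Since the 10 genes were highest in the same libraries, their promoters were read for short motifs of factors known from cytotoxic lymphocytes. RefSeq promoters (GRCm38.p6, 250 bases before to 50 after a start site) were at hand for 8 of the 10 genes. The motif TGTGGT or its reverse complement ACCACA, the core letters bound by RUNX factors, was found in the promoters of all 8 genes, at -227 to -34 relative to the start site. Ccl5 and Klrd1 are the genes without a promoter here. It occurs in 16.8% of 32851 promoters, or 18.9% of 27025 genes, and in 29 of 68 other NK and cytotoxic genes (42.6%). TCACAC, or GTGTGA on the opposite strand, a part of T-box sites, was found in 4 of 8, against 16.4% of genes. The ETS letters AGGAAG, or CTTCCT on the opposite strand, were found in 4 of 8, against 38.4%. In the 68 other NK and cytotoxic genes the T-box share was 19.1% and the ETS share 51.5%. Both strands were searched, and in these promoters no match of one motif overlapped a match of another. A match describes letters in a window and is not a shown binding site.

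The promoters of 3 granule genes and of Ncr1, the receptor with the highest NK level, are shown 5′ to 3′ along the gene's strand, in lower case with the RUNX motif in capitals. They lie at chr13:113100932-113101231 (Gzma, minus strand), chr14:56262285-56262584 (Gzmb, minus strand), chr10:61297586-61297885 (Prf1, plus strand) and chr7:4337474-4337773 (Ncr1, plus strand).
Gzma: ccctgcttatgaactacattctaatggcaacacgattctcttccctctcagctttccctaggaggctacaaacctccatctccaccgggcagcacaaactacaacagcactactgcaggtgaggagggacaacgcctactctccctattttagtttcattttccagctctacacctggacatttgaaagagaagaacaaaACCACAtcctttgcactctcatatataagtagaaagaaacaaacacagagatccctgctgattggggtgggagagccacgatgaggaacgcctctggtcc
Gzmb: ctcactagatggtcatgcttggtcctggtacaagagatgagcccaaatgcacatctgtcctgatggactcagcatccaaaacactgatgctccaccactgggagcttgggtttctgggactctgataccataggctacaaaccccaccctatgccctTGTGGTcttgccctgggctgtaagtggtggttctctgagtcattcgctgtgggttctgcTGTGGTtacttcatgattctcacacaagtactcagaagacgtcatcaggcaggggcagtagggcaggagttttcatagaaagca
Prf1: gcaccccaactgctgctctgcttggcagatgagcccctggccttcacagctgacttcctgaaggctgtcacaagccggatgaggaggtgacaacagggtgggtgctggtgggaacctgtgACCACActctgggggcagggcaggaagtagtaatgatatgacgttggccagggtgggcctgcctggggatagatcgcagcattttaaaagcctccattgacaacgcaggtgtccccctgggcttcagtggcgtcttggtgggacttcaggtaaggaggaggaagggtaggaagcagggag
Ncr1: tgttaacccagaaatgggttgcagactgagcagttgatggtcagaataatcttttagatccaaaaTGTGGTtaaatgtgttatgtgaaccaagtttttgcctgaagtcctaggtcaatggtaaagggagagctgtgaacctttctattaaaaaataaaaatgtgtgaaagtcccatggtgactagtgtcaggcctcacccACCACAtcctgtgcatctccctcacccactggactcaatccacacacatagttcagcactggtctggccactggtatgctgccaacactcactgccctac
Gzma and Prf1 hold 1 match each, and Gzmb and Ncr1 hold 2 each. In Gzma the match begins at -50 from the start site, in Prf1 at -130, in Gzmb at -93 and -34, and in Ncr1 at -185 and -50. The start sites are those of RefSeq. Bases just after the start were found in a GENCODE M21 transcript for Gzma and for the Ncr1 start shown, and not for Gzmb and Prf1. The Gzmb window lies wholly upstream of the Gzmb coordinates given above, so positions from the GENCODE start would differ. A second RefSeq start of Ncr1, with matches at -176 and -41, was not found in such a transcript either and is not shown.

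The closest comparison was that of NK cells with T cells isolated as CD8 T cells, both from spleen. Gzma and Gzmb were at 0.0113 to 0.145 TPM in the T cell libraries, and whether these T cells were cytotoxic was not tested. All 10 genes were called higher in NK cells on the TPM scale with no filter, where 10.1% of genes were called higher and 1.32% lower. The median log2 fold change was 2.98 for the 10 genes and 0.03 for all genes tested. Over the 12930 genes that passed the filter the median was 0.40, with 35.9% called higher and 2.61% lower. Ncr1 and Gzma had the largest ratios of mean TPM, and their T cell values were at most 0.119 TPM in every library. On the log2(TPM + 1) scale Gzma was higher by 5.81, Ncr1 by 4.57, Ccl5 by 4.16, Klrb1c by 3.53 and Klrk1 by 3.14. Prf1 (2.82), Gzmb (2.31) and Xcl1 (2.19) followed, and Nkg7 (1.73 ± 0.36, limma adjusted p = 0.011) and Klrd1 (1.32 ± 0.33, limma adjusted p = 0.024) were last.

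These last 2 calls depended on the scale. On the protein-coding scale, where 25.2% of 13664 genes were called higher in NK cells, both were lost. Nkg7 was at 1063, 1691 and 1337 in NK cells and 738, 775 and 811 in T cells, a log2 fold change of 0.79 ± 0.49 (standard error, adjusted p = 0.246 with limma). Klrd1 was at 378, 390 and 280 in NK cells and 167, 263 and 208 in T cells, a log2 fold change of 0.72 ± 0.54 (standard error, adjusted p = 0.339 with limma). The NK libraries lay above the T cell libraries for both genes on both scales. How many of all genes did so was not counted, so nothing is read from it. The other 8 had log2 fold changes of 2.77 (Prf1) to 9.18 (Ncr1) on this scale.

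**Figure D4:**
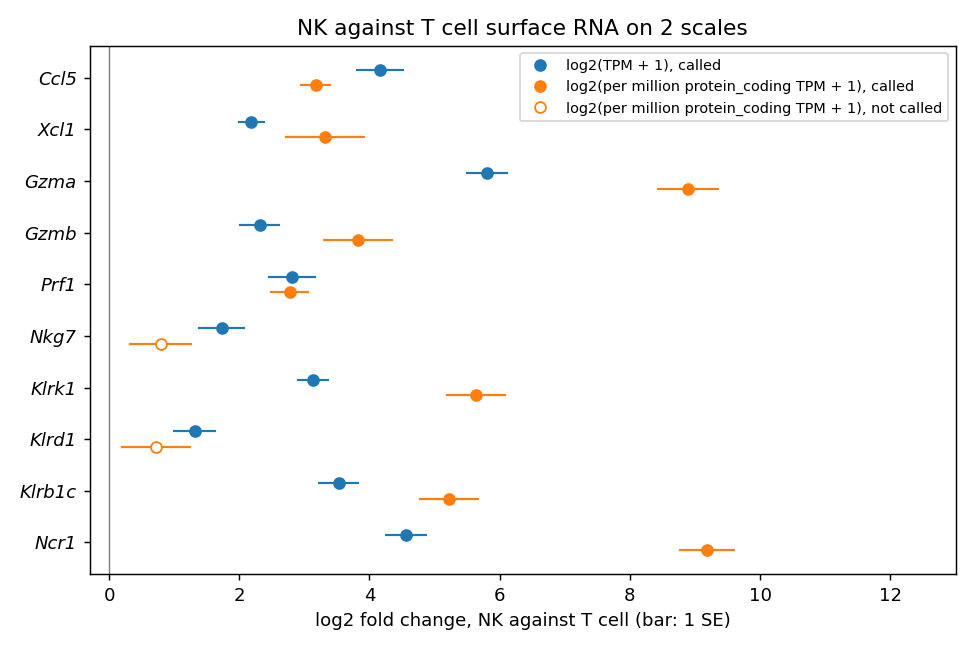
Log2 fold change of NK against T cell libraries for each gene with 1 standard error, on the log2(TPM + 1) scale with no filter and on the protein-coding scale, also as log2 with 1 added. Filled points passed an adjusted p of 0.05, and the open points are Nkg7 (0.79) and Klrd1 (0.72) on the second scale.

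Against B cells all 10 genes were called higher in NK cells with no filter, where 4.17% of genes were called higher and 2.71% lower. With the filter these shares were 11.0% and 7.14%. Log2 fold changes ran from 2.50 (Gzmb and Xcl1) to 7.34 (Ccl5), with 5.90 for Gzma, 4.87 for Nkg7 and 4.57 for Ncr1.

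T cells were compared with B cells for the same genes. Ccl5, Nkg7 and Klrd1 were called higher in T cells, by 3.18 ± 0.37, 3.14 ± 0.36 and 1.96 ± 0.33 on the log2 scale (standard errors, adjusted p at most 0.0022 with limma). These values are again from the fit with no filter, where 3 of 10 genes stand against 1.88% of all genes called higher and 9.18% called lower. With the filter, which called the same 3, the shares were 4.27% and 29.4%, and nothing is read from them. Prf1, with 0.447 to 1.40 TPM in T cells and 0.115 to 0.193 TPM in B cells, had a log2 fold change of 0.70 ± 0.37 (standard error, adjusted p = 0.360 with limma), and the other 6 were between 0.01 and 0.32. On the protein-coding scale Ccl5, Gzma, Gzmb, Prf1, Nkg7, Klrk1, Klrd1 and Klrb1c were called higher in T cells, where 13.5% of genes were called higher. Ncr1 was not called. Each of the 10 was above 1 in at least 3 libraries outside NK cells. With NK and T cell libraries left out, Xcl1 was above 1 in 2 libraries and would not have entered. It was called higher in T cells too, and its call is therefore not read. T cell levels on that scale were 69.3 to 91.9 for Prf1, 9.58 to 22.1 for Gzmb and 2.75 to 8.45 for Klrk1. In B cells they were 5.37 to 8.28, 0 to 0.313 and 0 to 1.10.

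Other genes of NK and cytotoxic cells were followed as a list of 82, of which 80 were in the surface tables. With no filter 50 of the 80 were called higher and 8 lower in NK cells than in the other 4 types, against 3.67% and 13.3% of all genes. Against T cells 50 of the 80 were called higher, against 10.1% of all genes. The calls of lower genes depended on the monocytes and on the scale. In the filtered fit 10 of 59 were called lower, on the protein-coding scale 3 of 75, and without monocytes 0 of 51. Listed genes high in NK cells could enter these fits through the NK libraries alone. No higher calls of the list are therefore read from them. Over all genes the lower calls went from 5151 of 12930 to 153 of 7718 without monocytes, and the higher calls from 729 to 1595. The 8 with the largest fold change against the other types were Il2rb, Klrc2, Klre1, Klra4, Klrc1, Klra8, Ccl4 and Sh2d2a.

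Il2rb, a chain of the receptors for interleukins 2 and 15, was at 9.73, 31.6 and 32.7 TPM in NK cells and at most 4.57 TPM in T cells. Klrc1 and Klrc2, partners of CD94, were at 3.55, 9.80 and 10.3 TPM and at 4.24, 16.6 and 14.6 TPM in NK cells, and at 0.102 to 0.334 TPM in T cells. Klra4 and Klra8, receptors of the Ly49 family, were at 4.10, 8.76 and 7.80 TPM and at 3.26, 9.29 and 7.06 TPM in NK cells, and both were listed at 0 in all HSPC and monocyte libraries. These receptor families hold near-identical genes, between which reads could be split. Ccl4, a chemokine like Ccl5, was at 9.54 to 35.6 TPM in NK cells but also at 21.2, 21.1 and 25.8 TPM in monocytes.

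The level most like the summed TPM of the 10 genes, by Pearson's r of log2 values over the 15 libraries, was that of Gata3 (r = 0.976), followed by Cd7 and Sytl3 (both 0.952), Nr4a2 (0.941) and AW112010 (0.929). The mean of Gata3 in NK cells was 2.01 TPM and its highest value elsewhere 1.03 TPM. For Cd7 these were 16.8 and 4.87 TPM. Points of a cell type share its isolation and platform, so the 15 points are not independent, and no p is given. Only genes that passed the filter were ranked. A gene high in NK cells could pass through the NK libraries alone, so the ranking is a description.

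In PBMC total RNA 9 of the 10 genes passed the filter on low counts. Xcl1 had 0 to 2 expected counts per library and did not pass it. With no filter it was tested with edgeR and not called in any of the 3 comparisons. Ccl5 was again first, with a mean of 10.7 TPM over the 9 libraries, followed by Gzma (4.38), Nkg7 (4.26), Prf1 (1.80) and Ncr1 (1.04). The first 3 places were held by the same genes as on NK cells, in the same order. Klrb1c was at rank 6 on NK cells and at rank 9 in PBMCs. PBMCs are a mixture, and in bulk RNA fewer cells of a type and less RNA per cell cannot be told apart. The labels do not say that libraries of a group came from separate mice, so p-values measure the spread between these libraries, which may be technical.

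Counts were scaled by edgeR's TMM factors to normalised CPM (counts scaled to a common library size). The 10 genes together were at 63.0, 67.4 and 65.7 CPM in ct, at 84.1, 93.4 and 85.4 in WT and at 66.1, 66.2 and 62.7 in Y. WT libraries were above all others, and ct and Y overlapped.

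**Figure D5:**
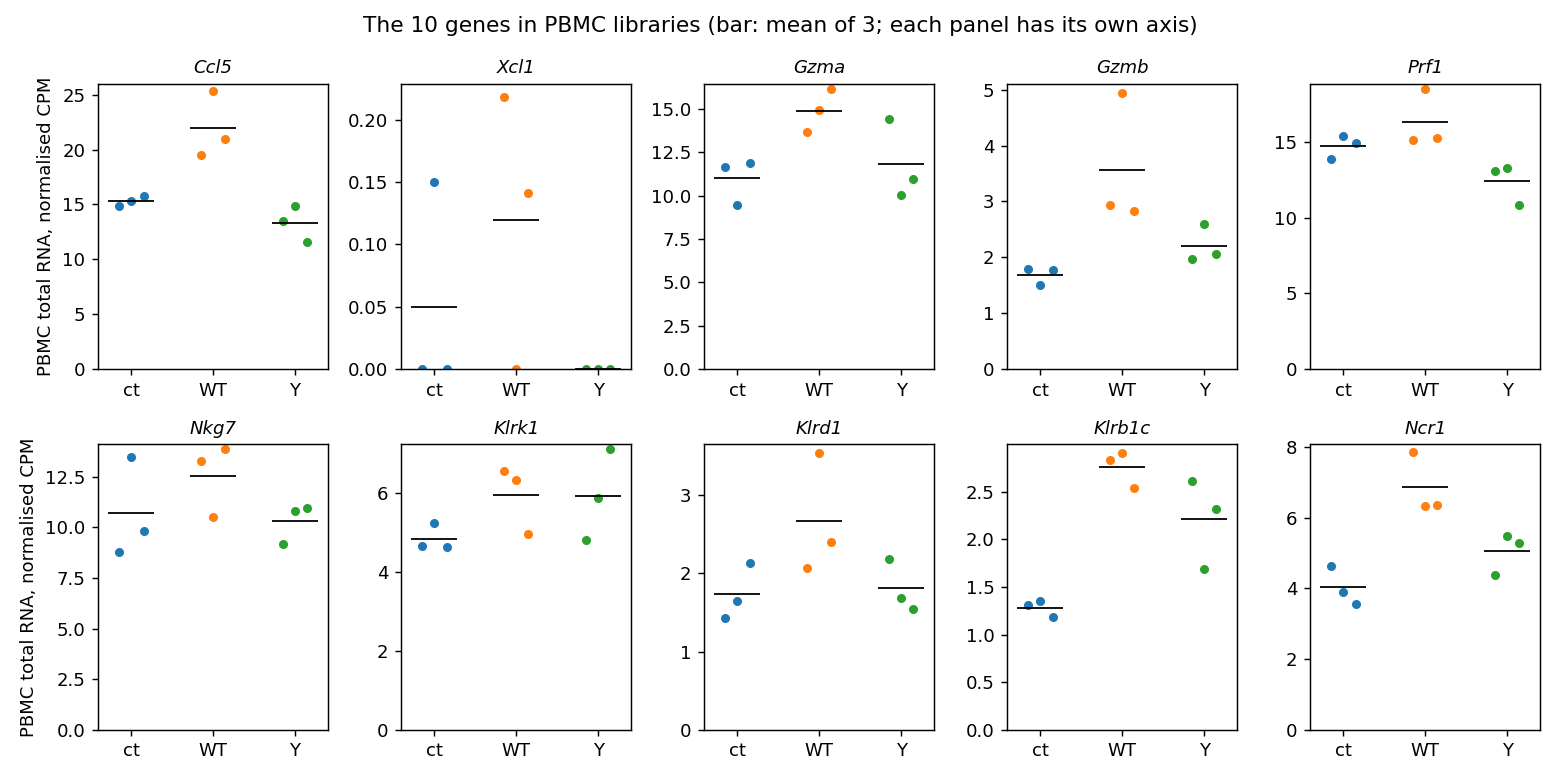
Normalised CPM of each gene in the 9 PBMC libraries by group, with 1 point per library and a bar at the mean of 3. Axes start at 0 and differ between panels. WT points lie above all ct points for Ccl5, Gzma, Gzmb, Klrb1c and Ncr1, and Xcl1 is at 0 in most libraries.

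WT was compared with ct first. Ccl5, Klrb1c and Ncr1 were called higher in WT, where 0.765% of 11635 genes were called higher and 1.60% lower. Ccl5 had 179, 200 and 148 counts in WT and 125, 102 and 133 in ct, or 19.5, 25.3 and 20.9 against 14.9, 15.3 and 15.8 CPM, with a log2 fold change of 0.52 ± 0.12 (standard error, adjusted p = 0.0256 with edgeR). Ncr1 had 72, 50 and 45 counts against 39, 26 and 30, a log2 fold change of 0.77 ± 0.18 (standard error, adjusted p = 0.0272 with edgeR). Klrb1c had 25.6, 23 and 18 counts against 11, 8.58 and 10, a log2 fold change of 1.11 ± 0.28 (standard error, adjusted p = 0.0484 with edgeR).

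Among the granule genes, Gzmb had 27, 39 and 20 counts in WT and 15, 10 and 15 in ct, with a log2 fold change of 1.06 ± 0.29 (standard error, adjusted p = 0.0683 with edgeR). Gzma was at 13.6, 14.9 and 16.1 CPM against 11.7, 9.44 and 11.9, a log2 fold change of 0.42 ± 0.13 (standard error, adjusted p = 0.148 with edgeR). Neither passed the threshold, although WT and ct libraries did not overlap for either. With no filter on low counts edgeR called Gzmb (adjusted p = 0.0211) and not Klrb1c (adjusted p = 0.0552), and still called Ccl5 and Ncr1. Such separation was seen for 5 of the 9 genes, and for 7.62% of all genes tested. Klrd1 (0.61), Klrk1 (0.31), Nkg7 (0.25) and Prf1 (0.15) overlapped between the groups and had adjusted p of 0.45 to 0.70 in edgeR.

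The calls depended on the tool and on single libraries. DESeq2 called 0 of the 6 genes for which it gave an adjusted p, with 0.0901 for Ccl5 and 0.133 for Ncr1, while 5 of 9 had an unadjusted p below 0.05 in both tools, against 1368 of all 11635 genes in edgeR and 688 in DESeq2. The call of Klrb1c was lost when any 1 of the 9 libraries was left out, with adjusted p of 0.0525 to 0.155 in edgeR. For Ccl5 it was lost without ct replicate 1, 2 or 3 or WT replicate 2 (adjusted p of 0.0546 to 0.140 with edgeR), and for Ncr1 without ct replicate 2 or 3 or WT replicate 1 (0.0839 to 0.120). Without those libraries, log2 fold changes were 1.06 to 1.17 for Klrb1c, 0.41 to 0.55 for Ccl5 and 0.65 to 0.75 for Ncr1.

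Markers of other cell types moved between the same groups. Of 9 erythroid markers tested 8 were called lower in WT than in ct, with sums of 4327 to 5017 CPM against 6970 to 8357, and of 8 platelet markers 7 were called lower, with sums of 294 to 321 against 454 to 488 CPM. Sums of the 14 T cell markers were 418 to 424 CPM in WT and 433 to 446 in ct. For the 12 B cell markers they were 491 to 503 CPM in WT and 469 to 481 in ct. The 10 HSPC markers summed to 21.7 to 23.5 CPM in WT and 30.7 to 32.5 in ct. Of 3 HSPC markers tested 1 was called lower, and of the T and B cell markers 0 were called. The part of these shifts in the values above was not tested.

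Y was then compared with ct, and edgeR called 0 of the 9 genes, where 0.266% of genes were called higher and 0.438% lower. One gene, Klrb1c, had an unadjusted p below 0.05, with 12, 13 and 18 counts in Y, 2.62, 1.69 and 2.32 CPM against 1.31, 1.35 and 1.19, and a log2 fold change of 0.75 ± 0.30 (standard error, adjusted p = 0.491 with edgeR). DESeq2 also called 0, and 0 had an unadjusted p below 0.05. The other 8 had log2 fold changes from -0.26 (Prf1) to 0.40 (Gzmb). Of 9 neutrophil markers tested 7 were called higher in Y than in ct, with sums of 260 to 275 against 106 to 118 CPM. Of 9 erythroid markers 7 were called lower, with sums of 4497 to 5072 against 6970 to 8357 CPM. Of 8 platelet markers 2 were called lower, and of 3 HSPC markers 1. The part of these markers in this comparison was not tested.

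Between Y and WT, Ccl5 was called lower in Y, with 62, 114 and 90 counts, or 13.5, 14.8 and 11.6 CPM, and a log2 fold change of -0.72 ± 0.12 (standard error, adjusted p = 0.0053 with edgeR). It was 1 of 9, where 0.817% of genes were called lower and 0.438% higher. Without Y replicate 3 its log2 fold change was -0.62 (adjusted p = 0.0665 with edgeR). All 3 Y libraries were below all 3 WT libraries for Ccl5, Gzmb, Prf1 and Ncr1, which is 4 of 9, against 8.75% of all genes. Prf1 was at 13.1, 13.3 and 10.8 CPM in Y and 15.2, 18.5 and 15.3 in WT, with a log2 fold change of -0.40 ± 0.12 (standard error, adjusted p = 0.153 with edgeR). Klrk1 was the only one of the 9 with a positive fold change, 0.02 ± 0.18 (standard error, adjusted p = 0.991 with edgeR). Neutrophil markers moved here as well, with 7 of 9 tested called higher in Y than in WT and sums of 260 to 275 against 97.2 to 106 CPM. Of 10 monocyte markers 3 were called lower in Y than in WT, with sums of 350 to 376 against 410 to 426 CPM. The part of these markers in the result was not tested.

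Of the list of other NK and cytotoxic genes 53 were tested in PBMCs. Ccl4 was called higher in WT than in ct and lower in Y than in WT, by 1.52 and -1.58 on the log2 scale (edgeR). DESeq2 gave it no adjusted p in either comparison and so made no call. It had 27, 31 and 22 counts in WT, 12, 4 and 11 in ct and 6, 7 and 9 in Y. Outside WT these counts lie near the default filter, so Ccl4 may have entered the tested set only through WT. The calls of Ccl4 are therefore not read. Cd226, an activating receptor also found on T cells and platelets, and Stx11, a syntaxin of granule release, were called lower in WT than in ct, with log2 fold changes of -0.46 and -0.51, and DESeq2 called both as well. Cd226 was at 43.0, 44.0 and 36.9 CPM in WT and 60.7, 48.2 and 61.6 CPM in ct. Nfil3, a transcription factor needed for NK development, was called lower in Y than in WT, at 2.84, 2.99 and 2.84 CPM against 5.35, 6.21 and 4.67, and DESeq2 did not call it (adjusted p = 0.219). None of the 53 was called between Y and ct by edgeR or DESeq2, with 3 and 0 genes at an unadjusted p below 0.05, against 1002 and 443 of all 11635 genes.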

How the data were processed

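For the surface libraries the authors estimated and deposited TPM per transcript with Kallisto, after trimming and removal of duplicate reads. The set of transcripts is not given in the sources used here, and it was not the same for all libraries: the monocyte tables list 149488 transcripts and the others 102168. The 102001 in all tables hold 99.0% to 99.2% of monocyte TPM. TPM were summed by gene name. For PBMCs the authors deposited RSEM expected counts per gene, which were rounded to whole numbers. Their strand setting is not given. The submitters' processing notes name mm10 for both, hg38 also for PBMCs.

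Surface values were compared with limma 3.58.1 (trend) in R 4.3.3, on log2(TPM + 1). The fit was planned with a filter, and the comparisons are given from it with no filter. For PBMCs, edgeR 4.0.16 was used (quasi-likelihood, TMM, default filter), with DESeq2 1.42.0 as an alternative. The limma and edgeR fits were tested on simulated data, and DESeq2 was not. P-values were adjusted by Benjamini-Hochberg over all genes tested.

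The 10 genes, the other lists and the tests were chosen with earlier results of these data known. All members are named, with the 8 other genes highest in NK cells by fold change and those called in PBMCs. Alternatives were other pseudocounts, filters, scalings and tools, a replicate block, and each library left out. TPM keep no depth, so no counting error is given for them.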

Additional observations from a re-analysis of the deposited data

How the results depend on the processing

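Counts here start from the fit with the filter, which 7 of the 10 genes passed only with the NK libraries, so nothing is read from them about the 10. As a description, no call of NK cells against the other 4 types, T cells or B cells changed direction in a surface alternative that the gene entered. The calls of Nkg7 and Klrd1 against T cells were lost on the protein-coding scale. A filter at 10 TPM in 1 library left 8 of the 10 genes. Without any 1 NK library 6 of the 10 passed the filter and all 6 were called, so these counts ranged from 6 to 10. Calls of T cells against B cells went from 3 to 9 on the protein-coding scale and to 8 after quantile normalization. They ranged from 3 to 4 without single libraries. After quantile normalization 2055 of all 12930 genes were called higher and 2581 lower in T than in B cells. Quantile normalization also moved the median fold change of all genes in NK against T cells from 0.40 to -0.00 on the log2 scale, with 1991 genes higher and 1697 lower in place of 4644 and 337. In NK cells against the other types that median moved from -0.32 to 0.07 on the protein-coding scale, with 1910 genes higher and 818 lower in place of 729 and 5151, and between T and B cells from -0.28 to -0.02, with 1840 and 2547 in place of 552 and 3802. On the protein-coding scale each of the 10 genes would have entered without the NK libraries, and their log2 fold changes in NK cells stayed positive. Quantile normalization was run on the filtered set, so nothing is read from it about the 10. For the list of other genes, a filter at 10 TPM in 1 library left 27 genes. It gave 23, 22 and 21 calls in place of 51, 46 and 51 for NK cells against the other types, T cells and B cells. Over all 6830 genes at that filter, calls were 360 higher and 2457 lower, 3376 and 247, and 900 and 609. In the main fit they were 729 and 5151, 4644 and 337, and 1416 and 923 of 12930. Between T and B cells the 20 calls of the list became 13 with the 10 TPM filter, 13 with a pseudocount of 10 and 40 on the protein-coding scale. Over all genes these fits gave 403 higher and 2733 lower, 413 and 1962, and 1840 and 2547, in place of 552 and 3802. Leaving out single libraries gave 30 to 52, 23 to 48, 29 to 52 and 16 to 20 calls in the 4 comparisons. Over all 9109 to 12925 genes, higher calls were then 482 to 780, 2004 to 6965, 915 to 2082 and 380 to 594. Lower calls were 1921 to 6081, 222 to 377, 564 to 1020 and 2177 to 4488. Protein-coding transcripts alone gave a monocyte sum of 21.8 TPM in place of 32.2.

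In PBMCs the 3 calls of WT against ct became 0 with DESeq2 and 1 in a fit of those groups alone, and 0 to 2 without single libraries, and the 1 call of Y against WT became 0 to 1. The list of other genes gave 1 to 3 calls of WT against ct without single libraries. Of Y against WT it gave 0 (DESeq2), 4 (no filter) and 0 to 3 calls (single libraries left out) in place of 2. Over all genes, WT against ct gave 56 to 126 higher and 111 to 171 lower calls without single libraries. DESeq2 gave 50 and 120 there, and a fit of those groups alone 65 and 141. Y against WT gave 35 higher and 60 lower calls with DESeq2, and 132 and 234 with no filter. Without single libraries it gave 26 to 65 and 26 to 112. Small folds that did not pass the test changed sign. In Y against ct, Klrd1 was at -0.0039 with no filter and -0.12 to 0.21 without single libraries, Gzma at -0.075 to 0.16 and Nkg7 at -0.14 to 0.16. In Y against WT, Klrk1 was at -0.0034 with no filter and -0.14 to 0.11 without single libraries. The cause of these changes was not tested.

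Groups share replicate numbers in the labels, but the numbers were not found to pair the libraries. Deviations of same-numbered libraries from their group means correlated at -0.27 to 0.47 on the surface (6 of 30 pairs over 0.1) and at -0.06 to 0.06 in PBMCs. With the replicate number as a block, the calls were 10, 10, 10 and 3 on the surface, and 2, 0 and 1 in PBMCs, where that of Klrb1c in WT against ct was lost and Klrd1 in Y against ct was at -0.015. The other genes of Y against WT then had 1 call in place of 2.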
